A study of Mus musculus with 4 samples.

Results

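The Runx genes and Cbfb encode the core-binding factor complex, and the positions of Pax7 binding around these 4 genes were examined in muscle progenitor cells. A Pax7 peak was assigned to Runx1, Runx2, Runx3 or Cbfb when its summit, the base of strongest signal, lay between 100 kb before the start and 100 kb after the end of the gene. This rule uses position alone, and it gave 25 of the 20579 Pax7 peaks in the series. Runx1 held 13 of them, Runx2 held 7, Cbfb held 3 and Runx3 held 2.

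The RUNX proteins are transcription factors that bind DNA through the Runt domain, and CBFβ, the product of Cbfb, is a partner that does not bind DNA itself but strengthens the binding of all RUNX proteins. Runx1 is known for its need in definitive blood formation and is also induced in injured and denervated muscle. Runx2 is the master regulator of bone-forming osteoblasts, and Runx3 acts in T cells and in sensory neurons. Each of the Runx genes is read from a distal promoter, P1, and a proximal promoter, P2, which give proteins with different first residues. Pax7 marks and maintains the stem cells of skeletal muscle and binds DNA through a paired domain and a homeodomain.

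The cells were iPax7 progenitors, made from mouse embryonic stem cells with 1 doxycycline-inducible Pax7 cDNA placed near Hprt. They differentiated as embryoid bodies in serum, received 1 µg/ml doxycycline from day 3, were sorted at day 5 as PDGFRα+FLK1-, and grew with 10 ng/ml basic FGF until harvest at day 9, after 6 days of doxycycline. There were 2 Pax7 ChIP-seq libraries and 2 input libraries, all from cells that carried the transgene and received doxycycline, and cells without doxycycline were not analysed here. The authors merged the libraries of each kind before they called the peaks, so each peak has 1 value and no error between replicates, and no difference below was tested. These 4 libraries hold no measurement of RNA, so neither the muscle identity of the cells nor the expression of any Runx gene could be checked from them.

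The gene positions in the annotation of the same genome build (mm9, NCBIM37) were as follows. Runx1 (ENSMUSG00000022952.9) runs from 92601712 to 92826311 on the minus strand of chromosome 16, and its annotated coding transcription start sites (TSSs) form 3 clusters. The first is P1, at 92826311, and the next, at 92697573, is the P2 region 129 kb downstream, with a last cluster at 92696255. Runx2 has 2 gene records, of which 1 is ENSMUSG00000039153.9, and together they span 44632936 to 44951746 on the minus strand of chromosome 17. Its P1 lies at 44951576, and 3 clusters around P2 begin 78.0 kb downstream. Runx3 (ENSMUSG00000070691.4) runs from 134676567 to 134733905 on the plus strand of chromosome 4, with its proximal start 31.8 kb from the distal one. Cbfb (ENSMUSG00000031885.7) runs from 107694574 to 107741886 on the plus strand of chromosome 8 and has 1 TSS cluster.

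The sequences under the main Runx1 summits are given first, because Runx1 holds most of the peaks and its P2 region is flanked by a pair of them. Peaks are numbered by fold enrichment within their gene. Each sequence is the plus strand of NCBIM37, 50 bp to either side of the summit, except that 30 bases are shown for peak 2, whose summit lies in 5′ UTR. Capitals mark a RUNX core (TGTGGT or TGCGGT) or a paired-box core (GTCACG), the letters searched on both strands. On the minus strand the first RUNX core reads ACCACA, the other RUNX core reads ACCGCA, and the paired-box core reads CGTGAC.
Runx1 peak 1 (chr16:92610103-92610203): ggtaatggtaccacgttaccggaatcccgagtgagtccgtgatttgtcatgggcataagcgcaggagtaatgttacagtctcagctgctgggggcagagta
Runx1 peak 2 (chr16:92697116-92697145): gagcaccgtgtaACCGCAgcaggtggagcg
Runx1 peak 3 (chr16:92710016-92710116): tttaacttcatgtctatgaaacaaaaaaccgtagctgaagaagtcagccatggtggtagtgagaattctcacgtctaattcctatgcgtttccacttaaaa
Runx1 peak 4 (chr16:92740431-92740531): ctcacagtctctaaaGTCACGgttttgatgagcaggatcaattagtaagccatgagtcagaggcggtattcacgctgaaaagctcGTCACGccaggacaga
Runx1 peak 5 (chr16:92730372-92730472): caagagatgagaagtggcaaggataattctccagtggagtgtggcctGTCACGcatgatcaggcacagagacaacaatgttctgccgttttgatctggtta
Runx1 peak 8 (chr16:92697624-92697724): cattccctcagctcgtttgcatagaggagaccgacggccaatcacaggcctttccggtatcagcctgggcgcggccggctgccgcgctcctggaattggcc
Runx1 peak 9 (chr16:92890897-92890997): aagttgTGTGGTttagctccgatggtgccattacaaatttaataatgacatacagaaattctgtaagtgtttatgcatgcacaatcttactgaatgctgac

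The next sequences are those of the strongest peak of each other gene and of every Runx2, Runx3 or Cbfb peak with a core. Cbfb peak 1 is shown up to the start of the neighbouring gene's UTR. None of the marked cores overlap each other.
Runx2 peak 1 (chr17:44846905-44847005): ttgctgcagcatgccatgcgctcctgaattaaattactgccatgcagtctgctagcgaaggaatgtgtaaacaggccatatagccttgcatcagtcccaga
Runx2 peak 2 (chr17:44827269-44827369): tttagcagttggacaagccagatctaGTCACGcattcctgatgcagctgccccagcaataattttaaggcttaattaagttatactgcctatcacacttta
Runx2 peak 6 (chr17:44798566-44798666): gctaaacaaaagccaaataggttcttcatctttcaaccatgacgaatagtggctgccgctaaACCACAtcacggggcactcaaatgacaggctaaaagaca
Runx3 peak 1 (chr4:134810809-134810909): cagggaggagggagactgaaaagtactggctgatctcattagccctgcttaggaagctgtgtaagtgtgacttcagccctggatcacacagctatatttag
Cbfb peak 1 (chr8:107748978-107749044): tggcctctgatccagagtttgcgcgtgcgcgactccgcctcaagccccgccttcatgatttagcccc
Cbfb peak 2 (chr8:107814956-107815056): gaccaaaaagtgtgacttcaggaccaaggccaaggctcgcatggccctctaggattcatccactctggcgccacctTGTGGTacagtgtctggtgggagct

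**Figure D1:**
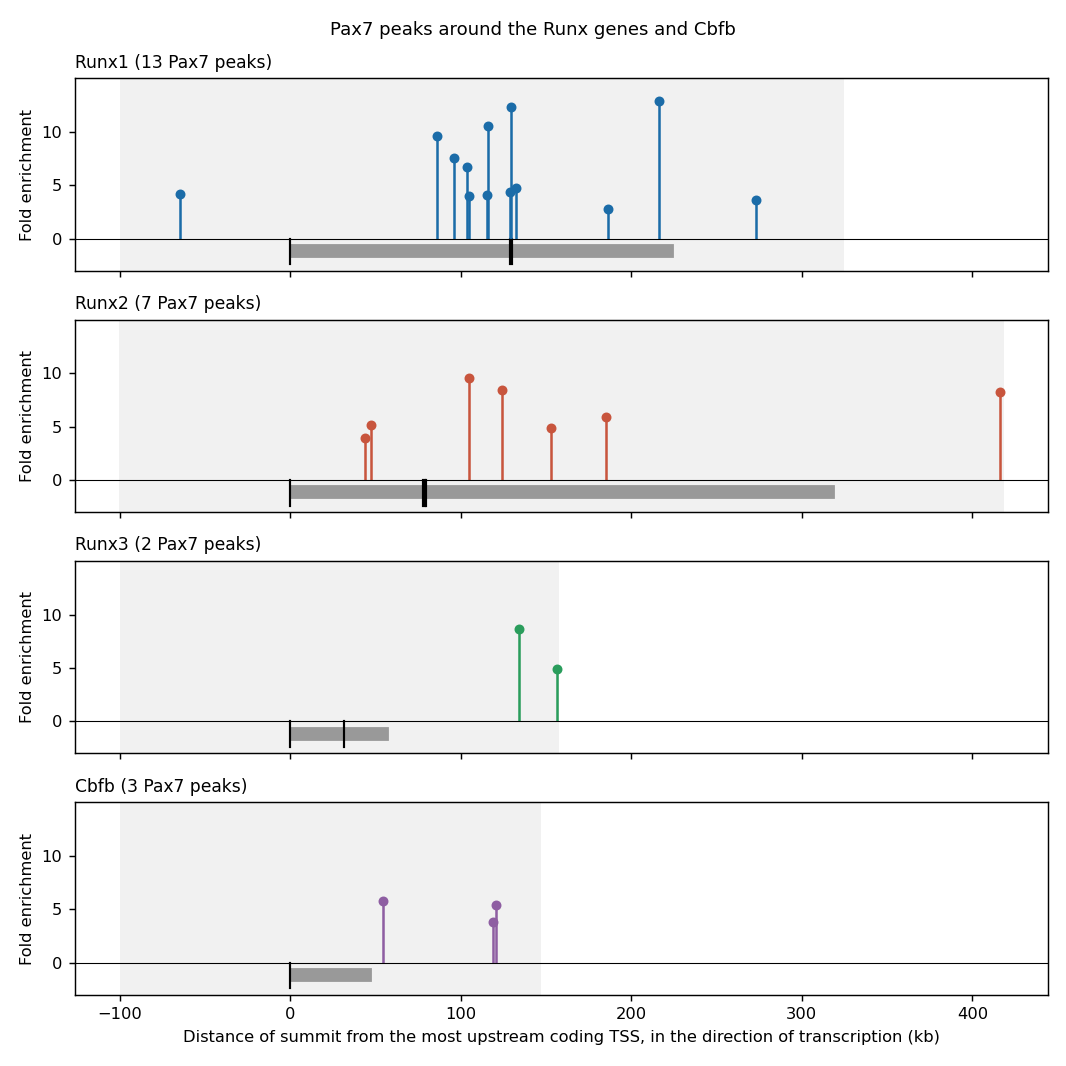
Each stem is a Pax7 peak, placed by the distance of its summit from the most upstream coding TSS (x axis, kb, positive in the direction of transcription), with its fold enrichment as height. Grey bars are the gene bodies, black ticks the TSS clusters and light shading the search window. The stems of Runx1 gather over and before its proximal promoter, whereas all stems of Runx3 and Cbfb lie beyond the end of those genes.

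Runx1 had the most Pax7 peaks of the 4 genes, and 11 of its 13 summits lay inside the gene. Runx1 peak 1 (16:92609683-92610314) had a fold enrichment of 12.88 over input and a −log10 q of 65.9, which placed it above 97.6% of all Pax7 peaks by fold. It lay in intron 7, the last intron of the P1 transcript, 216 kb from P1 and 8.44 kb before the end of the gene. The nearest TSS there was that of Gm16801, a noncoding gene, at 2.91 kb. No RUNX or paired-box core stood within 50 bp of this strongest summit.

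The proximal promoter of Runx1 was bound on both sides of its start. Runx1 peak 2 (16:92696939-92697262) had its summit 455 bp downstream of the P2 start, in 5′ UTR, with a fold enrichment of 12.37 and a −log10 q of 49.4. Runx1 peak 8 (16:92697523-92697758) had its summit 101 bp upstream of the same start, with a fold enrichment of 4.36 and a −log10 q of 6.96. The summits stood 556 bp apart, and the downstream one was the stronger. Where peaks up to 500 bp apart were joined, this pair became a single peak. Within 50 bp of the summit the G and C content was high at both, 67.3% for peak 2 and 64.4% for peak 8, against a median of 45.5% in the same window over all Pax7 peaks. Cbfb peak 1, which lay at the TSS of another gene, also had 64.4%. The capitals in the stretch printed for peak 2 show a RUNX core on the minus strand, which is the strand of the gene, 12.5 bp from the summit.

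A further set of Runx1 peaks lay in the interval between the promoters. Runx1 peak 3 (16:92709919-92710264, 10.55-fold, −log10 q 41.2) was 12.5 kb upstream of the P2 start, in intron 2 of the P1 transcript. Runx1 peak 5 (16:92730292-92730551, 7.58-fold, −log10 q 26.8) was 32.8 kb upstream and had a paired-box core 0.5 bp from its summit. Runx1 peak 4 (16:92740310-92740693, 9.59-fold, −log10 q 40.8) was 42.9 kb upstream and had a pair of paired-box cores, at 32.5 and 37.5 bp on opposite sides of the summit. These peaks exceeded 94.4%, 82.2% and 91.8% of all Pax7 peaks by fold. Weaker peaks in the same intron, peaks 6, 10 and 11, had folds of 6.75, 4.11 and 3.99.

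The peaks were unevenly spread along Runx1. The 129 kb between P1 and P2 held 7 peaks, or 5.44 per 100 kb, and all of them lay within 42.9 kb of P2. A run of 9 peaks, picked out after the values were seen, reached from 2.25 kb downstream of the nearest P2-region start, at peak 7, to peak 4. It covered 46.8 kb, which is 19.2 peaks per 100 kb, against 0.78 per 100 kb over the genome. The ends of the run were set at its own outermost summits, so its density is high by construction. From peak 4 to P1 there were 85.8 kb without a summit. The peak nearest to P1 was Runx1 peak 9 (16:92890890-92891100, 4.19-fold, −log10 q 6.58), in intergenic sequence 64.6 kb upstream, with a RUNX core 41.5 bp from its summit.

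The remaining Runx1 peaks were weak. Runx1 peak 7 (4.71-fold, −log10 q 7.67) and Runx1 peak 12 (3.58-fold, −log10 q 8.43) are named outside the rule, after their values were seen, because each had a paired-box core, at 12.5 and 4.5 bp from the summit. Peak 12 was intergenic, 48.5 kb past the end of Runx1, and the nearest TSS was that of Clic6, a chloride intracellular channel family gene, at 54.9 kb. Runx1 peak 13, in intron 6, had a fold of 2.79 and exceeded 0.914% of all Pax7 peaks.

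Runx2 had 6 of its 7 peaks inside the gene, and most lay downstream of P2. Runx2 peak 1 (17:44846835-44847090) had a fold enrichment of 9.59 and a −log10 q of 34.8. It lay in intron 4 of the P1 transcript, 24.7 kb downstream of the last P2-region cluster. The TSS nearest to it belonged to another gene, 9530072K05Rik, 216 bp away. Runx2 peak 2 (17:44827167-44827433, 8.42-fold, −log10 q 39.2) lay further along the same intron, 44.3 kb past the last start cluster, with a paired-box core 21.5 bp from its summit, and the 9530072K05Rik TSS was again the nearest, at 19.9 kb.

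The other intronic Runx2 peaks were of lower fold. Runx2 peak 4 (17:44766451-44766760) was 5.93-fold with a −log10 q of 13.1, in intron 6. Runx2 peak 6 (17:44798521-44798768) was 4.88-fold with a −log10 q of 8.4, in intron 4, and carried a RUNX core 14.5 bp from its summit. A noncoding gene, n-R5s27, had the TSS nearest to both, at 11.5 kb from peak 4 and 20.5 kb from peak 6.

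Between the Runx2 promoters there were 2 peaks, in intron 1. Runx2 peak 5 (17:44904225-44904592) was 5.12-fold with a −log10 q of 16.1, and Runx2 peak 7 (17:44907830-44908079) was 3.89-fold with a −log10 q of 7.42. Their nearest TSS was that of Supt3h, at 9.66 and 6.17 kb. Supt3h encodes a subunit of the SAGA coactivator complex and overlaps the Runx2 locus, so the gene that either peak belongs to cannot be told from position. In contrast to Runx1, no peak stood at the proximal promoter of Runx2, and the nearest summit to any of its TSS clusters was that of peak 1. Runx2 peak 3 (17:44534995-44535300, 8.22-fold, −log10 q 30.9) was intergenic, 97.8 kb past the gene's end and just inside the window, and the nearest coding gene to it was Clic5 at 210 kb.

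Runx3 had no Pax7 peak between its start and end, nor in the 100 kb upstream of it. Its 2 peaks lay past the gene and closer to Clic4, another gene of the chloride intracellular channel family. Runx3 peak 1 (4:134810703-134810992) was 8.69-fold with a −log10 q of 26.7, in an intron of Clic4, 17.9 kb from the Clic4 TSS and 77.0 kb past the end of Runx3. Runx3 peak 2 (4:134833011-134833192) was 4.88-fold with a −log10 q of 8.4, 4.35 kb upstream of the Clic4 TSS and 99.2 kb past the end of Runx3.

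Cbfb had no peak inside the gene or in the 100 kb upstream of it either. Its 3 peaks lay past its end, at or near the starts of other genes. Cbfb peak 1 (8:107748909-107749181) was 5.76-fold with a −log10 q of 12.3, and its summit was 17 bp upstream of the TSS of D230025D16Rik and 7.14 kb past the end of Cbfb. Cbfb peak 3 (8:107813070-107813329) was 3.84-fold with a −log10 q of 6.99, with its summit 158 bp inside 4931428F04Rik. Cbfb peak 2 (8:107814936-107815130) was 5.39-fold with a −log10 q of 11.0, in an intron of Exoc3l, 1.58 kb upstream of the 4931428F04Rik TSS, and had a RUNX core 28.5 bp from its summit. The window also holds Ces3b, Ces4a, B3gnt9-ps, Tradd, Fbxl8, Hsf4, Nol3, E2f4, Elmo3 and Lrrc29, so the Cbfb count is one of a gene-dense stretch.

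**Figure D2:**
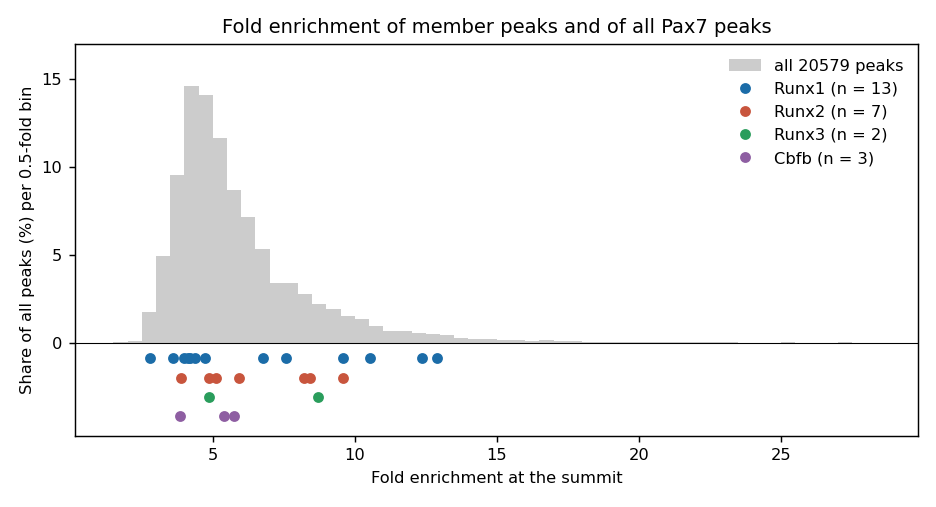
The grey histogram gives the share of all 20579 Pax7 peaks (y axis, %) in each bin of fold enrichment (x axis), and the coloured points below the zero line are the 25 peaks at the 4 genes, 1 row per gene. The Runx1 points spread from 2.79 to 12.88, the widest range of the 4 genes, and the Cbfb points end at 5.76.

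As a set, the 25 peaks were close to all Pax7 peaks in strength. Their median fold enrichment was 5.39 (2.79 to 12.88), against 5.22 (1.6 to 27.97) over all peaks. A fold of at least 5 was reached by 14 of 25, or 56.0%, where 54.9% of all Pax7 peaks reached it. A fold of at least 10 was reached by 3 of 25, all of them at Runx1, or 12.0%, against 6.99% over all peaks. By gene, the median was 4.71 at Runx1, 5.93 at Runx2, 6.79 at Runx3 and 5.39 at Cbfb. Runx1 therefore had both the strongest peaks of the 4 genes and a lower median than the other 3, since 7 of its 13 peaks were under 5-fold.

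The placement of the 25 peaks leaned towards introns. Introns held 16, or 64.0%, against 42.1% over all Pax7 peaks, and intergenic sequence held 4, or 16.0%, against 39.0%. A summit within 1 kb of a TSS was found for 5, or 20.0%, against 16.3%. Gene body makes up 225 of the 425 kb of the Runx1 window and 319 of the 519 kb of the Runx2 window, and its part in this split was not tested.

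Runx1 also had many peaks when set beside all 22254 protein-coding genes. At least 1 peak in the window was found for 75.2% of coding genes, so the presence of a peak at all 4 members is close to what most genes show. The median gene had 2 peaks in its window, and 99.4% of genes had fewer than the 13 of Runx1. For Runx2, Cbfb and Runx3 the shares of genes with fewer peaks were 92.4%, 56.9% and 41.1%. A summit inside the gene, as found for Runx1 and Runx2, was present in 22.3% of coding genes. Long genes have longer windows, and per 100 kb of window Runx1 had 3.06 peaks, more than 95.8% of genes, Runx2 1.35, Cbfb 1.21 and Runx3 0.777, against a median of 0.916.

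The rank of Runx1 depended on the promoter from which peaks were counted. Within 100 kb of P1 it had 3 peaks, and 63.8% of genes had fewer around their most upstream TSS. Within 100 kb of the P2 start it had 11, and 99.6% of genes had fewer around whichever of their own coding TSSs had the most, a comparison added after the data were seen. For Runx2 the count rose from 2 at P1 to 5 at P2. Runx3 had 0 and Cbfb had 1 by either count.

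The loci were also set beside the Tead genes, Yap1 and Wwtr1, transcriptional regulators that act in muscle progenitors. The windows of these 6 genes held 25 peaks, or 1.44 per 100 kb, with a median fold of 5.25. The Runx genes and Cbfb held 1.73 per 100 kb, with a median fold of 5.39. Of these genes only Runx1, at 3.06 per 100 kb, was above 1.44. Runx2 had 1.35, Cbfb 1.21 and Runx3 0.777. Wwtr1, which encodes the coactivator TAZ, had 9 peaks and 2.81 per 100 kb and came next below Runx1 in density among these 10 genes.

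**Figure D3:**
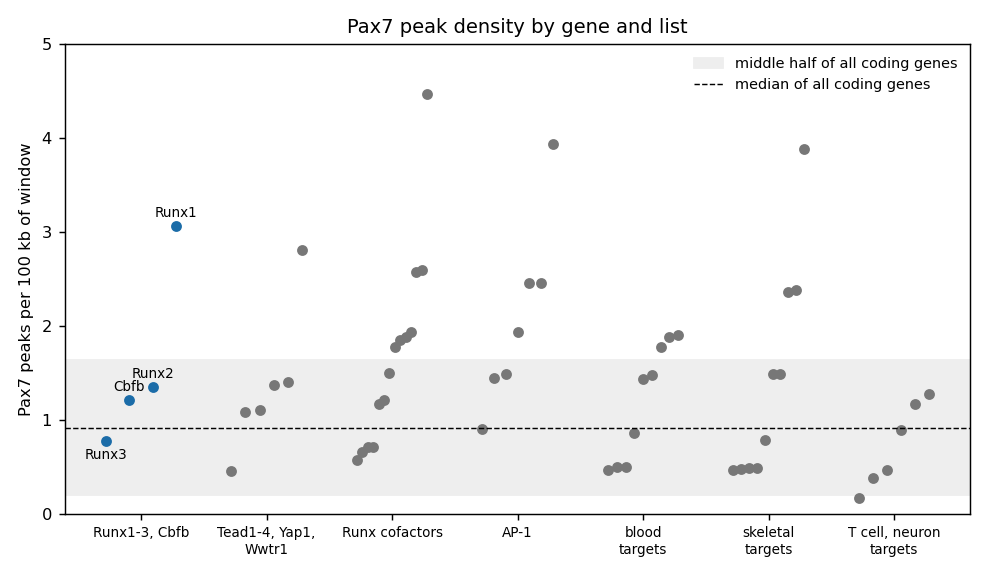
Each point is a gene, placed by the Pax7 peaks per 100 kb of its window (y axis) within its list (x axis), with the Runx genes and Cbfb in blue. The grey band spans the middle of the distribution of all coding genes, from 0.204 to 1.64, around the dashed median of 0.916, and Runx1 at 3.06 lies above the band while the other 3 members lie within it.

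Genes whose products work with RUNX proteins were examined by the same rule. All 14 cofactor genes had at least 1 peak, against the 75.2% of all coding genes, with 61 distinct peaks in all. Their density was 1.64 per 100 kb, where a peak lying in several windows was counted for each of them. Tle3, a Groucho corepressor that RUNX proteins recruit through their C-terminal motif, had 11 peaks with a highest fold of 7.5. Tle4, another Groucho gene, had 9 peaks with a highest fold of 10.63. All 7 genes of AP-1, a factor that often binds beside RUNX proteins, had a peak, with 30 in all and 2.07 per 100 kb. Jun had 8, of up to 12.71-fold, and Jund and Fos had 5 each, of up to 12.46 and 11.19-fold. Most AP-1 peaks were weaker than these. The list had a median fold of 4.7, against 5.22 over all Pax7 peaks. A fold of at least 5 was reached by 43.3% of its peaks, against 54.9% over all peaks.

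**Figure D4:**
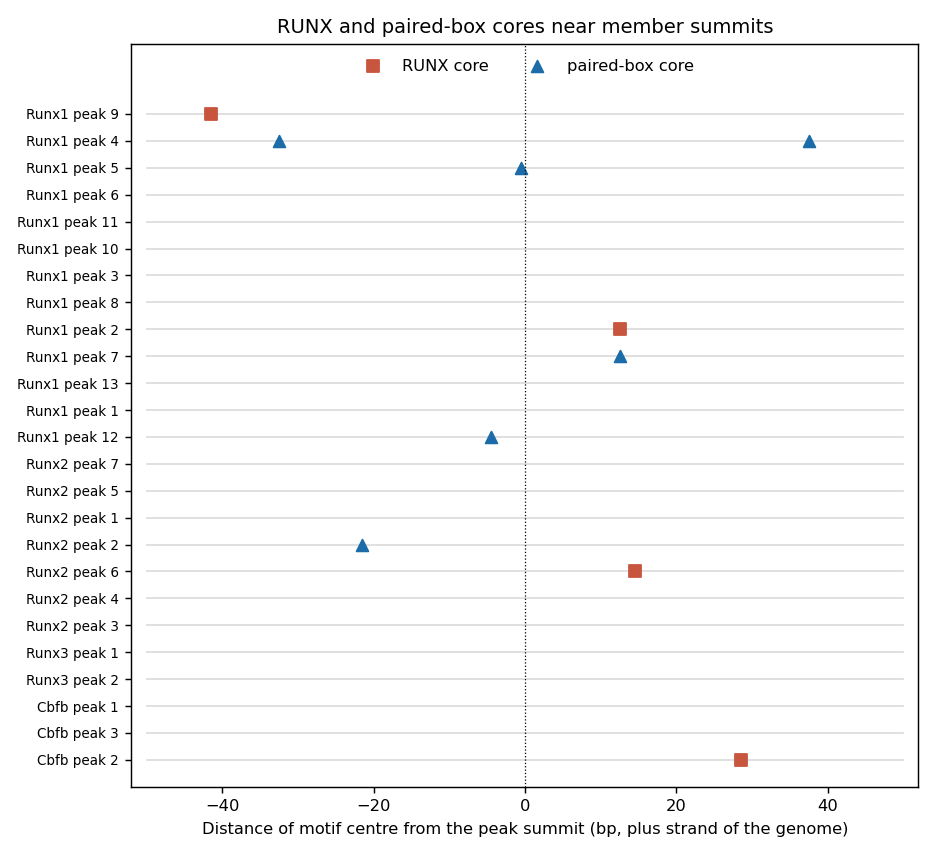
Each row is 1 of the 25 peaks, and the symbols mark the centre of each RUNX core (squares) and paired-box core (triangles) relative to the summit (x axis, bp). The 9 marked rows hold 1 kind of symbol each, and 16 rows hold none.

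RUNX cores were found near 4 of the 25 summits and paired-box cores near 5, and no peak had both. The RUNX core was within 50 bp of 16.0% of the summits (95% Wilson interval 6.4 to 34.7), and 11.8% of all Pax7 peaks had it. The paired-box core was within 50 bp of 20.0% (8.86 to 39.1), against 11.1% of all Pax7 peaks. In windows of the same length 500 bp away from the summit these shares over all peaks were 8.23% and 1.31%, and at the 4 genes they were 1 of 25 and 0 of 25. The homeodomain pair, TAAT and ATTA with 2 or 3 bases between them, was found at 0 of 25 summits, an interval of 0 to 13.3%, against 1.82% of all Pax7 peaks. Neither kind of core was present at 16 of 25 summits, Runx1 peaks 1, 3 and 8 among them. The intervals at the 4 genes include the shares over all peaks. They treat the 25 peaks as independent, although 9 of them lie in 1 run at Runx1, and no difference was tested.

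The question of RUNX sites also concerns Myh3, which encodes embryonic myosin heavy chain, since the study names Runx1 as a possible partner of Pax7 at an enhancer hub of the Myh cluster. The study reported Runx1 ChIP-seq binding at that hub, from published data of primary myoblasts and not of these progenitors. It also reported Runx1 among the proteins purified with Pax7. In its maps of promoter contacts (promoter capture Hi-C), Runx1 and Runx2 were among the genes identified as targets of Pax7 enhancers. None of these results was examined here. A search for letters does not measure Runx1 binding. Which of the peaks near Myh3, if any, lies in that hub was not examined either. The sequences at 2 of the 3 Pax7 peaks near Myh3 are shown because they differ in the RUNX core, the first around its summit and the other over the whole peak, with RUNX cores in capitals as above.
Myh3 upstream peak (chr11:66890369-66890469): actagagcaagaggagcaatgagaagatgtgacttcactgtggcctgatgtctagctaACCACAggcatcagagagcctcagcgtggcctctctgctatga
Myh3 downstream peak (chr11:66919296-66919538): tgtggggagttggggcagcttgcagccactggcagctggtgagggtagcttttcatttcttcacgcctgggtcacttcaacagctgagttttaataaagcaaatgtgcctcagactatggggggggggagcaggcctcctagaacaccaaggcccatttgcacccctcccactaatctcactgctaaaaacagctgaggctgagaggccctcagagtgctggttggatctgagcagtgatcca

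The downstream peak (11:66919296-66919538, 4.11-fold, −log10 q 7.18) lay 27.6 kb downstream of the Myh3 TSS and held 0 RUNX cores over its 243 bp. Its letters begin with tgtggg, which differs from the core searched. A core between start and end was present in 26.8% of all Pax7 peaks, so its absence from 1 peak is the more frequent state. Both peaks upstream of Myh3 held the core. The peak 1.38 kb upstream (11:66890313-66890579, 5.85-fold, −log10 q 23.2) had it 10.5 bp from its summit. The peak 0.768 kb upstream (11:66890918-66891209, 7.1-fold, −log10 q 21.4) had 2, the nearer at 98.5 bp. These 3 peaks had no paired-box core and no homeodomain pair within 50 bp.

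The window edge decided little at Runx1 and more at Runx3. The peaks nearest outside the windows stood 104 kb from Runx1 (7.91-fold), 141 kb from Cbfb (3.65-fold), 155 kb from Runx2 (5.62-fold) and 175 kb from Runx3 (7.5-fold). The outermost peaks inside stood at 64.6, 73.1, 97.8 and 99.2 kb from the same genes, with folds of 4.19, 5.39, 8.22 and 4.88.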

How the data were processed

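Pax7 ChIP-seq and input libraries, 2 of each, were made from doxycycline-treated iPax7 progenitors. The authors merged the libraries of each kind and called peaks with MACS2 at a q cut-off of 0.01 on mm9, and they deposited 1 list. Its deposited columns hold a score, the fold enrichment over input at the summit, the −log10 q and the summit position, and 0 columns belonged to a sample without a label. The list gives no read counts, so the depth behind each peak is unknown.

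Summits were placed on GENCODE vM1 genes and motifs were searched in NCBIM37 with Python 3.11.15, numpy 2.4.6, pandas 2.3.3, pysam 0.24.0, scipy 1.17.1 and matplotlib 3.10.9. The peak assignment and motif search were tested on simulated data. The 4 genes, the cofactor, AP-1 and target lists and the motifs were chosen with earlier results of these data known. Kat6a, Kat6b and Spi1 were matched by the older names Myst3, Myst4 and Sfpi1 through the RefSeq table. All peaks of genes with 10 or fewer were named, and for Runx1 the 5 of highest fold and those nearest to its TSS clusters (TSSs within 500 bp), with the gene of the nearest TSS, other coding genes in the windows and the 2 genes of each list with the most peaks. Wilson intervals cover counting only. A planned comparison with another gene family is not reported here. Alternatives were minimum values of 5 for fold or −log10 q, joining of peaks up to 500 bp apart, windows of 50 or 200 kb, any overlap, and 25 or 100 bp for motifs.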

Additional observations from a re-analysis of the deposited data

How the results depend on the processing

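Of 61 alternatives, 45 left the count or value within the limit set and 16 moved it. The limit was 1.5 times for a count and the 95% Wilson interval for a motif share. Counts, medians and shares have no direction, so a reversal was not possible. With a fold enrichment of at least 5, Runx1 had 6 peaks, Runx3 had 1, the 4 genes together had 14, and the median fold of those kept was 8.32, since weaker peaks are removed by construction. With 50 kb to either side, Runx3 had 0 peaks and Cbfb had 1, and with 200 kb Runx3 had 4. The Runx1 count ranged from 11, with peaks within 500 bp merged, to 17, with 200 kb to either side, under the other settings. The count around P1 of Runx1 was 0 within 50 kb and 14 within 200 kb, the latter more than for 98.6% of genes. The RUNX core share stayed within its wide interval (6.4 to 34.7) but changed with the window, being 8.0% within 25 bp and 32.0% within 100 bp of the summit, against 5.83% and 21.2% over all Pax7 peaks. Peaks were called on merged libraries, so no replicate could be left out. No paired analysis was possible because the single peak list holds no value of any one library.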

Other observations

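Genes known as targets of RUNX proteins in other tissues were examined by the same 100 kb rule, as a description. All 9 blood genes on the list had a peak, with 22 distinct peaks in all. The density was 1.2 per 100 kb, where a peak lying in several windows was counted for each of them. Csf1r, the receptor of macrophage colony-stimulating factor, Mpo, the neutrophil enzyme myeloperoxidase, and Gfi1b, a transcriptional repressor in blood development, had 4 each, the most on that list, with highest folds of 9.45, 9.64 and 6.28.

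All 10 skeletal genes had a peak, with 23 distinct peaks in all. The density was 1.41 per 100 kb, with shared peaks again counted for each window. Spp1, which encodes the bone matrix protein osteopontin, had 8 peaks in its window, and Sp7, the osteoblast factor downstream of Runx2, and Ibsp, bone sialoprotein, had 5 each, with highest folds of 8.19, 7.5 and 8.19. Ibsp and Spp1 are neighbours and share peaks. All 6 genes tied to Runx3 in T cells and neurons had a peak, with 12 in all and 0.586 per 100 kb. Itgae, the integrin of resident T cells, and Bcl2l11, a promoter of cell death, had 3 each, with highest folds of 5.24 and 4.16. A peak in such a window was found for 75.2% of all coding genes, and the difference between the lists and that share was not tested. The median fold was 4.89 in the blood list, 4.65 in the skeletal list and 4.08 in the T cell and neuron list. Over all Pax7 peaks it was 5.22.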
